A study of Anguilla anguilla with 24 samples.

Results

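The gold response of the liver was set against the gold response of the brain in the same European eels (Anguilla anguilla), contig by contig. For each contig, a sequence of an assembled transcriptome, the quantity is the log2 fold change of gold-fed over control eels in liver minus the same fold change in brain. It is called the difference throughout, and a positive value means that the liver responded more upward than the brain. Contigs entered where their mean in each tissue, over 12 libraries, reached 1 CPM (read count scaled to a library of 1 M, mega, reads). This kept 24856 of 50640 contigs (49.1%), and all 24 libraries were used. The mean was taken over gold-fed and control eels together, so a contig could reach it through 1 group alone.

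Of 12 eels, 6 were given gold nanoparticles in their food over 21 days and 6 were controls, and liver and brain were taken from every eel. The 4 groups of 6 libraries were gold-fed liver, gold-fed brain, control liver and control brain. The labels give no strain, sex, age, particle size or dose, and nothing in them says how the eels were housed. The p-values therefore rest on the spread from eel to eel within these groups. Each eel is its own pair, since the labels name the same individual for its liver and its brain.

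Nanoparticles taken up from the gut reach the liver through the portal blood, while the brain lies behind the blood-brain barrier. The liver is the main site of sterol and fatty acid synthesis, and both organs hold resident immune cells. MHC class I proteins present peptides made by the proteasome to T cells, and interferons raise the genes of that pathway.

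Depth was 50.3 to 87.6 M counted reads in the gold-fed livers and 59.4 to 89.8 M in the control livers. It was at least 79.3 M (mean 96.6 M) in the gold-fed brains, against 66.0 to 85.3 M (mean 77.8 M) in the control brains. The gold-fed brains were thus deeper on average, and the part of depth in the differences was not tested. Counting error is larger at the lowest levels, as in oncmyk-uba.13.29 with 2 reads in its lowest liver of either group and contig_02561 with 19 to 34 reads in gold-fed liver. The summed level of 36 hepatocyte marker contigs lay between 65537 and 103974 CPM in gold-fed liver and between 56782 and 123828 CPM in control liver. It lay between 97.4 and 208 CPM (median 118) in gold-fed brain and between 104 and 692 CPM (median 114) in control brain, so the highest control brain stood far above the median. The sum of 51 neuron marker contigs lay between 49.4 and 63.5 CPM in gold-fed liver, 43.2 and 60.3 CPM in control liver, 5126 and 5937 CPM in gold-fed brain and 5116 and 5519 CPM in control brain, so each tissue carried the markers of its label. Gold-fed eel 11 stood apart in sterol genes. Levels are CPM normalised over all 24 libraries.

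The livers and brains of an eel deviated together. After subtraction of the group means, the correlation across contigs between an eel's liver and its own brain was 0.401 to 0.618, and the highest correlation with the brain of another eel of its group was 0.0193. Each of the 12 livers correlated best with the brain of its own eel. Deviations within a group cancel by construction, which lowers the correlations with the other brains, so those are no independent contrast. With the eel as a block the standard error of the difference was smaller in 20153 contigs (81.1%), with a median of 0.24 against 0.30 on the log2 scale without it.

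Few contigs passed the test of a different response in the 2 tissues. In edgeR's quasi-likelihood test with Benjamini-Hochberg adjustment, 6 of 24856 contigs passed at an adjusted p under 0.05 (0.0241%), 3 with a positive difference (0.0121%) and 3 with a negative one (0.0121%). Of the 6, 2 carried a gene name. At an unadjusted p under 0.05 there were 1139 positive contigs (4.58%) and 1203 negative ones (4.84%), in all 2342 (9.42%), against 1243 for evenly spread p-values. The median difference over all contigs was 0.01, and 51.0% of the differences were positive. The size of the fold change was larger in liver than in brain in 65.2% of contigs, with a median of 0.21 in liver and 0.12 in brain on the log2 scale. Among control eels, the median SD of a contig was also larger in liver, at 0.38 against 0.21 in brain. The part of this spread in the larger liver fold changes was not tested. The number that passed was 1 without the eel block and 232 in DESeq2 with the block, and it was 1 with edgeR's filterByExpr or no filter, where contigs at low levels in a tissue are tested too. Without single eels it was 0 (eels 2, 5, 6 and 11), 1 (eel 4), 2 (eel 3), 15 (eel 1) and 16 (eel 10), and 4 to 6 without any other eel.

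The clearest named gene was agpat3.1.2, a contig of the acyltransferase that adds a second fatty acid to lysophosphatidic acid in the making of membrane lipids and fat. In liver its level lay between 67.6 and 129 CPM (median 86.6) in gold-fed eels, against 22.9 to 39.02 CPM (median 30.6) in controls. In brain it lay between 49.0 and 64.1 CPM (median 51.3) in gold-fed eels, against 46.4 to 59.7 CPM (median 54.4) in controls. The liver groups did not overlap and the brain groups did. The fold change was 1.56 (SE 0.21) on the log2 scale in liver and -0.01 (SE 0.08) in brain, and the difference was 1.54 (SE 0.21, adjusted p = 0.0238, edgeR). The ratio of liver to brain was higher in each of the 6 gold-fed eels than in any control. The other contig of the gene, agpat3.2.2, lay between 3.19 and 8.03 CPM in gold-fed liver, against 5.13 to 9.86 CPM in control liver, with a difference of -0.48 (adjusted p = 0.573). With the reads of both contigs summed, the difference of agpat3 was 1.33 (adjusted p = 0.0292). With 1 eel left out at a time, the adjusted p of agpat3.1.2 lay between 0.0217 and 0.0943 and stayed under 0.05 without 6 of the 12 eels, and its difference lay between 1.41 and 1.68.

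Of the 6 contigs that passed, 4 had no gene name. In contig_02561 the level in liver lay between 0.531 and 0.899 CPM (median 0.745) in gold-fed eels, against 1.55 to 7.08 CPM (median 2.64) in controls, and in brain between 14.6 and 23.7 CPM in gold-fed eels, against 9.55 to 19.7 CPM in controls. The liver groups did not overlap, and the difference was -2.36 (SE 0.30, adjusted p = 0.0199, edgeR). Gold-fed livers held 19 to 34 reads of this contig at depths of at least 50.3 M, which is under 1 CPM in each. It thus reached the mean of 1 CPM in liver, needed to be tested, through the controls alone. In contig_22134 the levels varied widely from eel to eel. They lay between 0.841 and 15.9 CPM in gold-fed liver, 4.14 and 150 CPM in control liver, 0.541 and 14.7 CPM in gold-fed brain, and 1.17 and 64.1 CPM in control brain. Both tissues overlapped between the groups, yet the log2 ratio of liver to brain within an eel lay between -0.36 and 0.37 in gold-fed eels, against 0.85 to 2.08 in controls, and the difference was -1.62 (SE 0.23, adjusted p = 0.0365). The ratio within an eel separated the groups, and the level in either tissue did not. The adjusted p of contig_22134 lay between 0.024 and 0.145 with single eels left out in turn. This contig passed in 2 of the 12 fits, and contig_02561 passed in 8.

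The 2 unnamed contigs with a positive difference also overlapped in level and not in ratio. In contig_15793 the log2 ratio of liver to brain lay between 0.58 and 1.63 in gold-fed eels, against -1.07 to -0.29 in controls, while levels overlapped in both tissues (2.45 to 17.5 CPM in gold-fed liver, against 0.966 to 5.91 CPM in control liver). Its difference was 1.86 (SE 0.24, adjusted p = 0.0199, edgeR). In contig_15215 the log2 ratio lay between 0.22 and 1.32 in gold-fed eels, against -1.16 to -0.25 in controls, and the difference was 1.66 (SE 0.22, adjusted p = 0.0199). With 1 eel left out at a time, the adjusted p stayed under 0.05 without 7 of the 12 eels in contig_15793 and without 6 in contig_15215. In both contigs, the normalised level of liver stood above that of brain in each of the gold-fed eels and below it in each control. The TMM scaling factors lay between 0.481 and 0.617 in livers and between 1.78 and 1.94 in brains, so the order of the 2 tissues depends on the scaling. With library totals in place of these factors, the same 6 contigs passed the test of the difference.

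**Figure D1:**
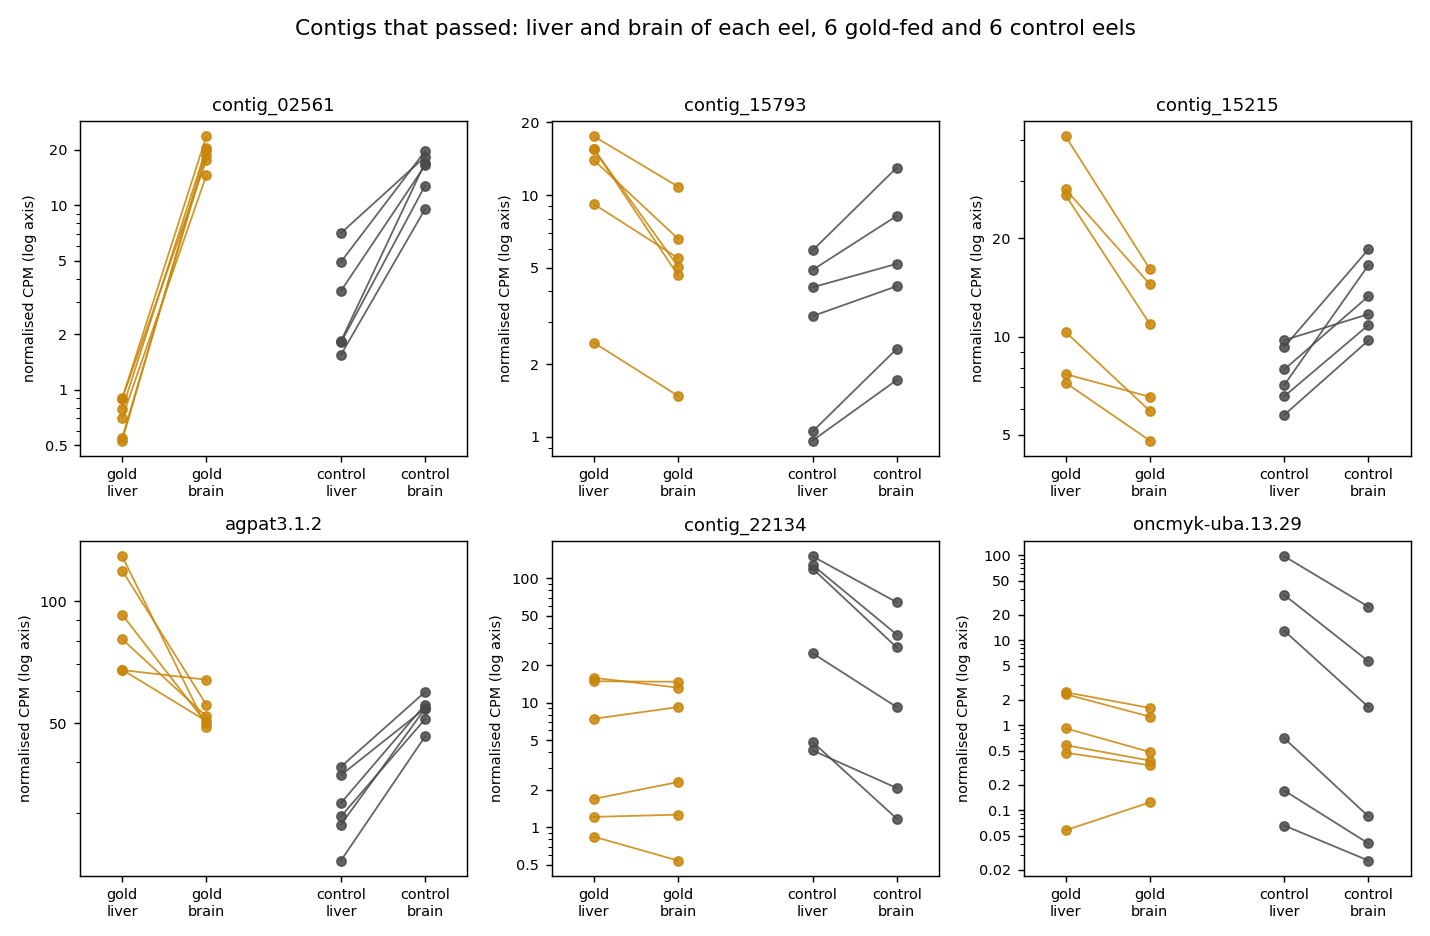
Normalised CPM on a log axis of the 6 contigs that passed; each line joins the liver and the brain of 1 eel, with 6 gold-fed eels left and 6 controls right. Lines of agpat3.1.2 run downward to brain in gold-fed eels, with liver at 67.6 to 129 CPM, and upward in controls, with liver at 22.9 to 39.02 CPM. This order of liver and brain holds on the normalised scale and depends on the scaling.

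The remaining contig that passed, oncmyk-uba.13.29, is 1 of 29 contigs that share a salmonid MHC class I label, and its value is uncertain because reads of near-identical copies can be split between contigs. Its level lay between 0.0580 and 2.44 CPM in gold-fed liver and between 0.0659 and 96.9 CPM in control liver, and between 0.123 and 1.59 CPM in gold-fed brain and between 0.0255 and 24.7 CPM in control brain. The normalised mean in gold-fed liver was 1.13 CPM, and with TMM factors of at most 0.592 there the unscaled mean was under 1 CPM. The contig thus reached the mean of 1 CPM in liver, needed to be tested, through the controls. Its groups overlapped in liver, in brain and in the log2 ratio, which was taken with 0.5 CPM added to each level. The ratios of control eels 1 and 2, at 0.31 and 0.11, lay within the gold-fed range of -0.16 to 0.68. Both eels had levels under 0.5 CPM in both tissues, where the added value shrinks a ratio, so this overlap depends on it. The other controls lay at 1.04 to 2.65. The difference of the contig was -1.89 (SE 0.28, adjusted p = 0.0479, edgeR). Its adjusted p lay between 0.024 and 0.2115 with single eels left out in turn, and it passed in 2 of the 12 fits. With the reads of all contigs of that label summed, the difference was -0.90 (adjusted p = 0.456) and did not pass. The contig nearest to the threshold from outside was rangrf at an adjusted p of 0.0883.

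MHC class I contigs of the group gathered here lay lower in the difference without exception. The group was put together after its leading contigs had been seen, so its counts describe it and support nothing. It holds the labels that begin with mhc1u and the label oncmyk-uba, and labels of other class I genes, if any, were not gathered. All 38 tested contigs of the group had a negative difference, 28 of them at an unadjusted p under 0.05 (73.7%, beside 4.84% of all contigs). Their median was -1.21 on the log2 scale (beside 0.01 over all contigs). Within a tissue they did not share a direction, since the liver fold change was negative in 26 of 38 and the brain fold change in 15 of 38. The contigs share 6 labels, and with reads summed by label all 6 differences were negative, with a median of -1.07.

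The summed level of these contigs shows both sides of the difference. It lay between 419 and 1412 CPM (median 1024) in gold-fed liver, against 669 to 1634 CPM (median 1459) in control liver. In brain it lay between 156 and 926 CPM (median 594) in gold-fed eels, against 241 to 547 CPM (median 351) in controls. The groups overlapped in each tissue, with the median of the gold-fed group lower in liver and higher in brain. The log2 ratio of the liver sum to the brain sum lay between 0.29 and 1.42 (median 0.84) in gold-fed eels, against 0.80 to 2.70 (median 1.84) in controls, which also overlapped. Among single contigs, mhc1uha.2.8 had a log2 ratio of -0.76 to 0.57 in gold-fed eels, against 1.12 to 2.21 in controls, without overlap (difference -1.80, SE 0.33, adjusted p = 0.153, edgeR). Ratios of every gold-fed eel lay below those of every control in 3 of the 38 contigs, beside 0.29% of all contigs.

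**Figure D2:**
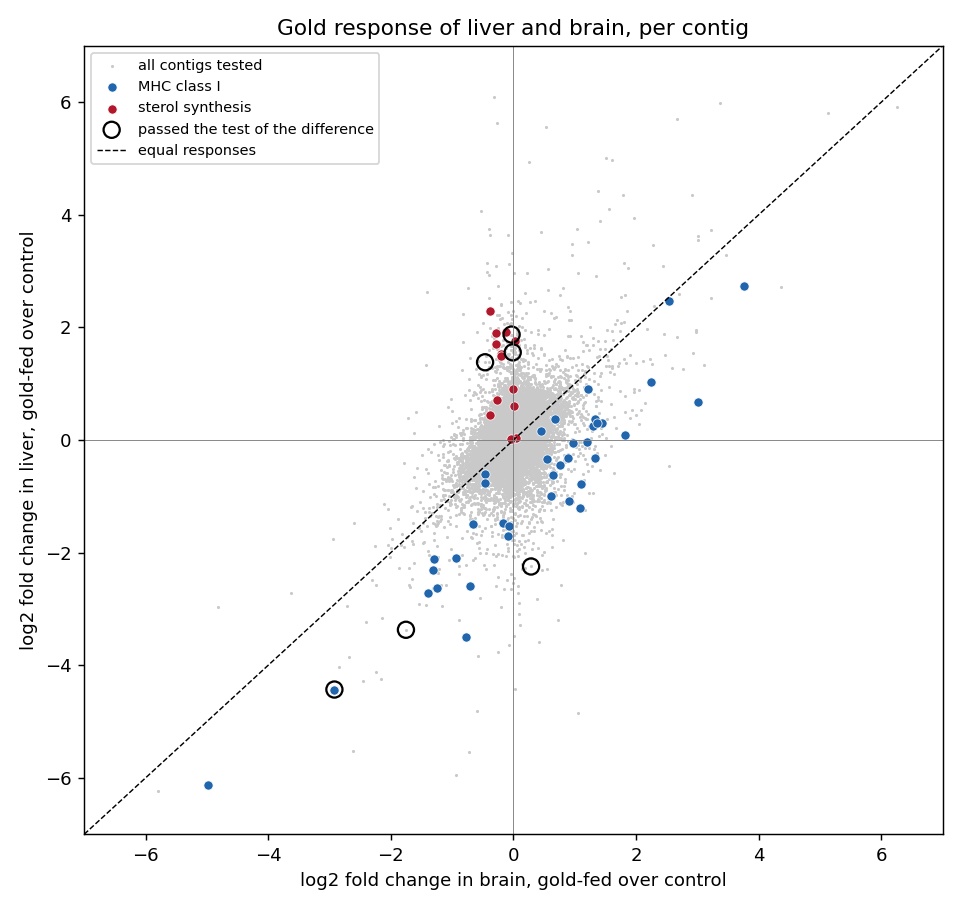
Log2 fold change of gold-fed over control eels in brain (x axis) and in liver (y axis), 1 point per contig tested; the dashed line marks equal responses, and 3 contigs beyond 7 on either axis are not shown. All 38 contigs of the MHC class I group lie where the difference is negative, and 12 of 13 sterol synthesis contigs where it is positive.

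Markers of lymphocytes and of leukocytes in general had negative differences throughout. The gene lists, this one among them, were chosen with earlier results of these data known, so their counts and shares describe them. All 15 tested contigs of the list were negative and all 15 had an unadjusted p under 0.05 (beside 4.84% of all contigs), none passed the adjusted threshold, and the median was -1.22. The liver fold change was negative in 15 of 15, with a median of -0.995, and the brain fold change was positive in 13 of 15, with a median of 0.42. The contigs belong to 9 labels, 6 of the contigs to ptprc (CD45, the phosphatase on all leukocytes). The summed level of all 18 contigs of the list lay between 64.4 and 168 CPM (median 96.3) in gold-fed liver, against 115 to 262 CPM (median 219) in control liver. In brain the sum lay between 64.9 and 336 CPM (median 246) in gold-fed eels, against 97.6 to 246 CPM (median 167) in controls. In tissue samples such as these, fewer cells of a type and less RNA per cell cannot be told apart.

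The T cell receptor chain CD3 zeta had 2 contigs. In liver, cd3z.2.2 lay between 0.282 and 1.74 CPM (median 0.917) in gold-fed eels, against 3.21 to 5.90 CPM (median 4.26) in controls, and in brain between 0.416 and 1.42 CPM in gold-fed eels, against 0.591 to 1.97 CPM in controls. The liver groups did not overlap and the brain groups did, and the difference was -2.02 (SE 0.45, adjusted p = 0.221, edgeR). The contig cd3z.1.2 had a difference of -2.07 (SE 0.45, adjusted p = 0.221). Pleckstrin (plek), a protein kinase C substrate of leukocytes and platelets, lay between 4.46 and 6.37 CPM in gold-fed liver, against 8.12 to 12.5 CPM in control liver, and between 2.55 and 4.32 CPM in gold-fed brain, against 3.19 to 5.13 CPM in control brain. Its liver groups did not overlap, and the difference was -0.88 (SE 0.17, adjusted p = 0.154). In vav1, a signalling protein of blood cells, liver and brain had opposite signs, -1.10 in liver and 0.47 in brain, for a difference of -1.56 (adjusted p = 0.342).

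Other immune groups, and the list of general proteasome subunits and activators, had the same sign with smaller medians. Over all contigs, 49.0% were negative and 4.84% were negative at an unadjusted p under 0.05. Of 17 macrophage, microglia and neutrophil contigs, 15 were negative, 4 of them at an unadjusted p under 0.05 (23.5%), with a median of -0.64. Of 26 interferon response contigs, 23 were negative, 8 at an unadjusted p under 0.05 (30.8%), with a median of -0.32. Of 51 proteasome contigs, 42 were negative, 9 at an unadjusted p under 0.05 (17.6%), with a median of -0.25. Of 28 contigs of the Toll-like receptor and NF-kB pathway, 21 were negative, 3 at an unadjusted p under 0.05 (10.7%), with a median of -0.14 that lay between -0.25 (without eel 6) and -0.05 (without eel 3). Their count at an unadjusted p under 0.05 was 1 without eel 2 or eel 5 and 2 without eel 3, 8, 9, 11 or 12. None of these contigs passed the adjusted threshold.

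Members of small p in these lists included parts of signalling and antigen presentation, among members of other roles. The integrin subunit itgb2.2.2 lay between 4.15 and 12.5 CPM in gold-fed liver, against 10.3 to 25.6 CPM in control liver, and between 10.6 and 36.7 CPM in gold-fed brain, against 10.0 to 23.6 CPM in control brain, with overlap in both tissues (difference -1.63, SE 0.39, adjusted p = 0.263, edgeR). With the reads of its label summed, the difference of itgb2 was -0.98 (adjusted p = 0.395). The interferon regulatory factor irf9 lay between 18.1 and 44.1 CPM (median 29.5) in gold-fed liver, against 43.9 to 144 CPM (median 77.1) in control liver, so that the groups overlapped only at their edges (difference -1.65, SE 0.48, adjusted p = 0.342). The peptide transporter tap1 had a difference of -1.20 with the same adjusted p. The proteasome activator psme1 had differences of -0.85 and -0.80 in its contigs psme1.2.2 and psme1.1.2 (adjusted p = 0.342 and 0.395). Among interferon targets that did not share the sign, the antiviral MX1 had a difference of 0.25 and irf7 of 0.51, and both had positive fold changes in liver and in brain.

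Single eels crossed over in these groups. The mean log2 ratio of liver to brain of the lymphocyte list was 0.42 in gold-fed eel 10, against -1.80 to -0.55 in the other gold-fed eels, and -0.80 in control eel 1, against -0.15 to 1.11 in the other controls. Without eel 1 the median difference of the list was -1.51, and without eel 10 it was -1.61, and all 15 contigs stayed negative without any single eel. The number at an unadjusted p under 0.05 was 9 without control eel 5, the lowest of the 12 fits. The macrophage count was 8 without eel 10, and the macrophage median was -0.42 without eel 12. The interferon count was 5 without eel 3. The proteasome count was 3 without eel 2, 6 or 12 and 4 without eel 8 or 9, and the proteasome median was -0.14 without eel 6. Erythrocyte markers summed to 926 to 4958 CPM in gold-fed liver, 343 to 1308 CPM in gold-fed brain, 2188 to 8341 CPM in control liver and 431 to 1050 CPM in control brain. Of 17 erythrocyte contigs tested, 6 were positive and 11 negative, 0 at an unadjusted p under 0.05, with a median of -0.02. The part of cell composition in the immune differences was not tested.

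**Figure D3:**
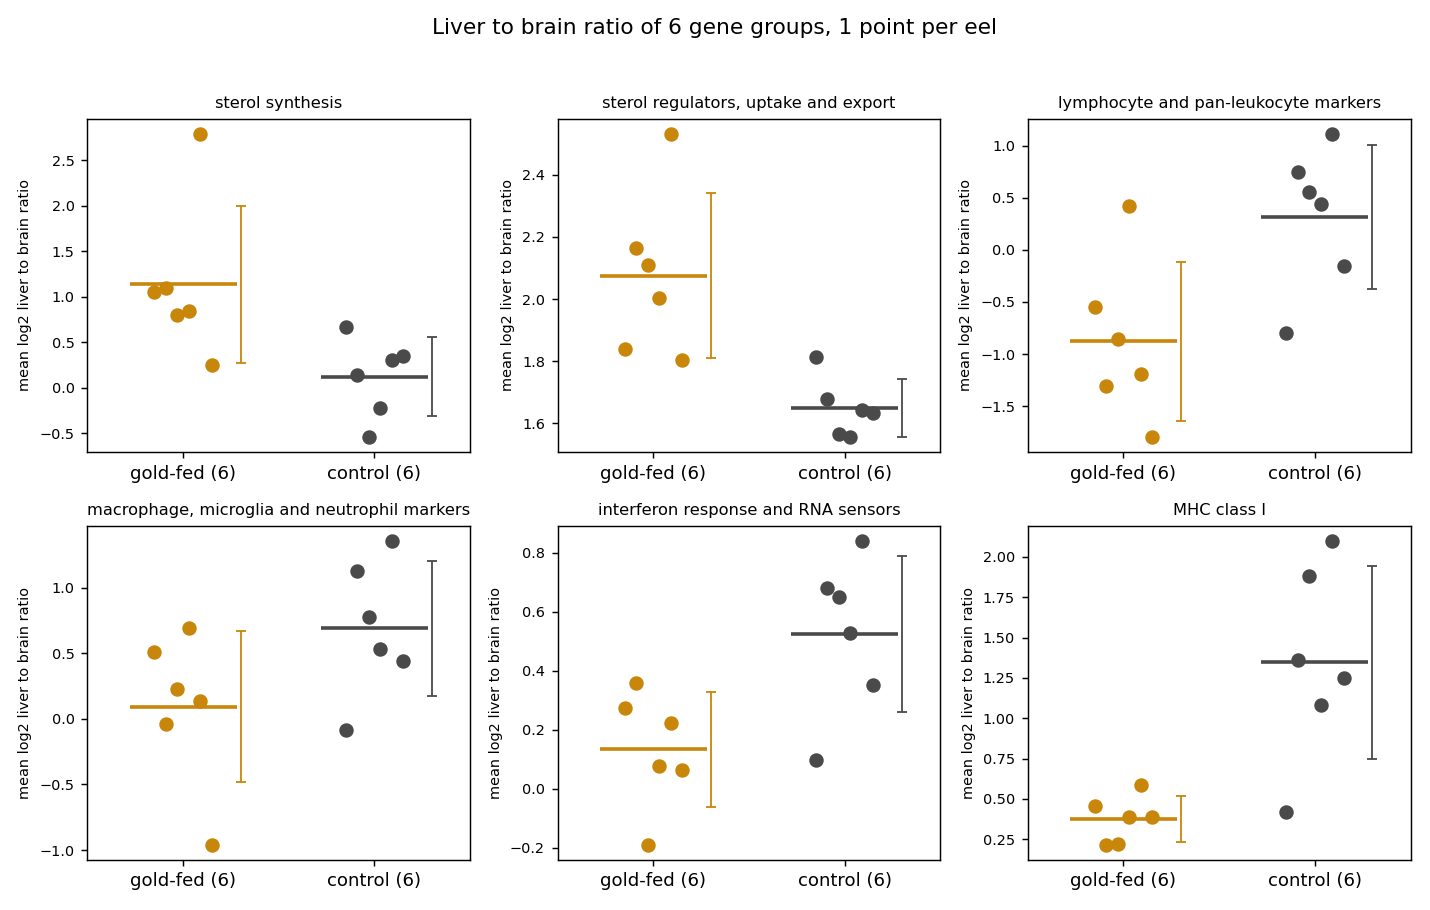
Mean log2 ratio of liver to brain over the tested contigs of 6 gene groups, 1 point per eel, with 6 gold-fed eels left and 6 controls right; lines are means and bars SD. Gold-fed eel 11 stands apart in sterol synthesis at 2.79, and control eel 1 lies among the gold-fed eels in the lymphocyte and MHC class I groups at -0.80 and 0.42.

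Sterol synthesis had the highest median difference of the 29 gene lists, a rank that describes lists chosen with earlier results of these data known. Of 13 tested contigs of its enzymes, 12 had a positive difference, 9 of them at an unadjusted p under 0.05 (69.2%, beside 4.58% of all contigs), and none passed the adjusted threshold. The median was 1.11, with a median fold change of 1.50 in liver and -0.20 in brain. The liver fold change was positive in 13 of 13 contigs and the brain fold change negative in 10 of 13. Ratios of every gold-fed eel lay above those of every control in 3 contigs, beside 0.286% of all contigs.

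The sterol reductase tm7sf2 lay between 6.38 and 50.7 CPM (median 8.55) in gold-fed liver, against 2.06 to 7.21 CPM (median 3.54) in control liver, and between 6.55 and 8.01 CPM in gold-fed brain, against 6.29 to 8.64 CPM in control brain. Levels overlapped in both tissues and ratios did not, and the difference was 1.67 (SE 0.49, adjusted p = 0.342, edgeR). The methylsterol monooxygenase msmo1 lay between 52.3 and 1047 CPM (median 113) in gold-fed liver, against 18.9 to 103 CPM (median 44.8) in control liver, and between 13.3 and 21.4 CPM in gold-fed brain, against 20.4 to 28.1 CPM in control brain. Its difference was the highest of the list at 2.14 (SE 0.69, adjusted p = 0.366). Lanosterol synthase (lss) had a difference of 1.47 (SE 0.47, adjusted p = 0.364), and the squalene synthase contigs fdft1.2.2 and fdft1.1.2 had differences of 1.43 and 1.11. The contig pmvk.2.2, of a kinase of the mevalonate steps, had a difference of -0.04.

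Gold-fed eel 11 carried the top value in these genes. Its mean log2 ratio over the 13 contigs was 2.79, against 0.25 to 1.097 in the other gold-fed eels and -0.54 to 0.67 in controls. Without it the median difference of the list was 0.70, and 12 of 13 contigs were positive, 8 of them at an unadjusted p under 0.05. Gold-fed eel 12, at 0.25, lay within the range of the controls.

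Regulators of sterol synthesis and uptake were higher in part. Of 21 tested contigs, 16 were positive and 5 negative, with 6 and 2 at an unadjusted p under 0.05 (28.6% and 9.52%, beside 4.58% and 4.84% of all contigs), and the median was 0.42. The negative count was 1 without eel 2, 5 or 12. Summed by label, 8 of 12 genes were positive and 4 negative, with a median of 0.22. The contigs of srebf2, the transcription factor that switches on sterol synthesis and uptake, led the list. The positive contigs at an unadjusted p under 0.05 included srebf2.5.5, srebf2.2.5, srebf2.3.5 and srebf2.4.5, all of the same label. In liver, srebf2.5.5 lay between 10.2 and 45.5 CPM (median 18.6) in gold-fed eels, against 6.65 to 11.2 CPM (median 10.0) in controls, and in brain between 2.76 and 5.68 CPM in gold-fed eels, against 4.60 to 6.98 CPM in controls. Both tissues overlapped, and the difference was 1.36 (SE 0.33, adjusted p = 0.264, edgeR). The other tested srebf2 contigs had differences of 1.20 to 1.30, and summed by label the gene had 1.29. The low-density lipoprotein receptor contig ldlr.2.3 had 0.92 and INSI1, the label of a protein that holds the factor back, had 0.75. The lysosomal sterol carrier npc2 was negative in both contigs, at -0.51 for npc2.2.2 and -0.50 for npc2.1.2.

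Fatty acid synthesis contigs did not share a sign, and none passed the adjusted threshold. Of 18 tested contigs, 11 were positive, 5 of them at an unadjusted p under 0.05 (27.8%, beside 4.58% of all contigs), and 7 negative, 0 at that level (beside 4.84%), with a median of 0.51. Without eel 3 the median was 0.28 and 2 contigs were negative at that level, and without eel 6 it was 1 contig. Summed by label, 6 of 12 genes were positive and the median was 0.04. The mitochondrial citrate carrier slc25a1b, which exports the carbon for lipid synthesis, lay between 226 and 289 CPM (median 252) in gold-fed liver, against 121 to 184 CPM (median 159) in control liver, without overlap. In brain slc25a1b lay between 6.75 and 10.2 CPM in gold-fed eels, against 8.30 to 12.6 CPM in controls. Its ratios did not overlap either, and the difference was 0.87 (SE 0.16, adjusted p = 0.146, edgeR). Single contigs of long-chain polyunsaturated fatty acid synthesis had positive differences, 1.14 in elovl2.2.3, 0.85 in FADS1, and 0.85 and 0.79 in fads2.3.3 and fads2.1.3. With reads summed by label, elovl2 had 0.81 (adjusted p = 0.551, edgeR) and fads2 had 0.66 (adjusted p = 0.509). Genes of the first steps did not share the sign, with -0.52 in acaca and -0.16 in fasn, and neither did the desaturase scd at -0.30.

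**Figure D4:**
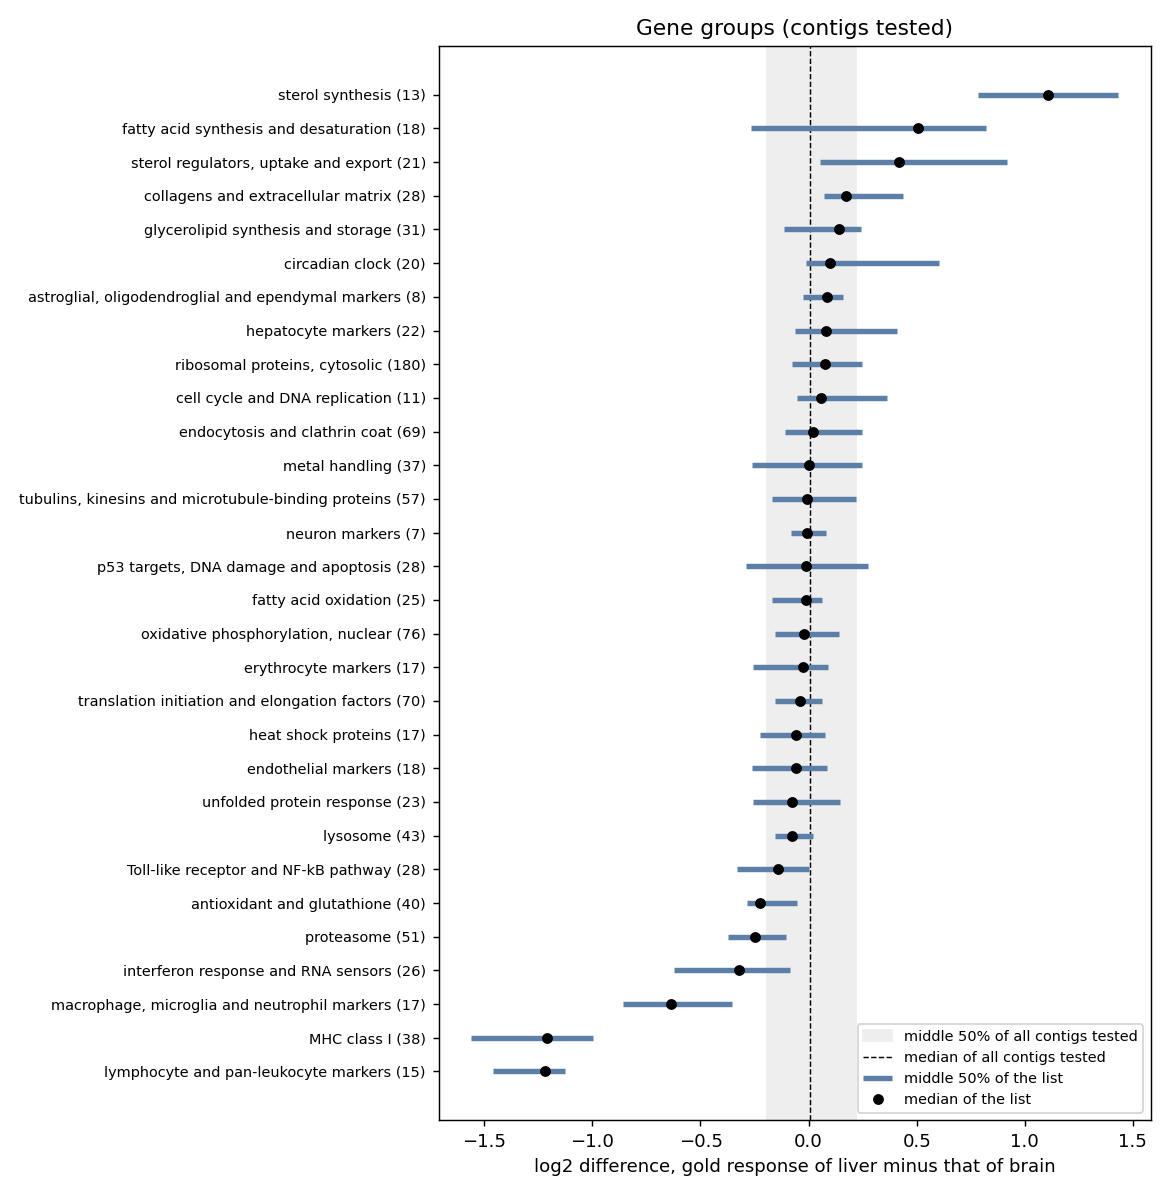
Log2 difference (gold response of liver minus that of brain) of 29 gene lists and the MHC class I group, with the number of contigs tested; points are medians, bars the middle 50% of a list, and the grey band that of all contigs. Sterol synthesis lies highest at a median of 1.11, and lymphocyte markers and MHC class I lie lowest at -1.22 and -1.21.

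Genes often looked at in exposure to metals and particles had few contigs at an unadjusted p under 0.05, beside 4.58% positive and 4.84% negative of all contigs. Of 37 metal handling contigs, 19 were positive and 18 negative, with 1 and 0 at an unadjusted p under 0.05 and a median of 0.00. The metallothionein contig MTA had a fold change of -0.70 in liver and -0.22 in brain, for a difference of -0.50 that did not pass. Of 17 heat shock protein contigs, 8 were positive and 9 negative, with 1 and 0 at an unadjusted p under 0.05 and a median of -0.06. Antioxidant and glutathione contigs were mostly negative, 32 of 40 (beside 49.0% of all contigs) and 22 of 24 with reads summed by label. Their median was -0.22, which was -0.12 without eel 6, -0.13 without eel 12 and -0.14 without eel 10. At an unadjusted p under 0.05 there were 1 positive and 1 negative contig. The negative count was 5 without eel 4, 3 without eel 10 and 2 without eel 1, 3 or 7, and the positive count was 0 without eel 1, 3, 4, 5, 6, 7, 9 or 10. Its leading member txnrd3, a thioredoxin reductase, lay between 18.3 and 24.6 CPM in gold-fed liver, against 22.3 to 36.2 CPM in control liver, with overlap (difference -0.55, SE 0.16, adjusted p = 0.343, edgeR). The medians of 18 of the 29 lists lay within 0.1 of 0.

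The remaining lists lay close to the median of all contigs. Glycerolipid synthesis and storage, the list of agpat3, had 19 positive and 12 negative contigs and a median of 0.14, with agpat3.1.2 and chkb.2.3 as the only members at an unadjusted p under 0.05. The circadian clock had 14 positive and 6 negative contigs and a median of 0.10, and without eel 6 it had 9 positive and 11 negative ones and a median of -0.01. It was led by both contigs of the clock repressor nr1d1, with differences of 1.44 in nr1d1.1.2 and 1.47 in nr1d1.2.2 (adjusted p = 0.437 and 0.470, edgeR). Medians were 0.08 for 180 cytosolic ribosomal contigs, 0.06 for 11 cell cycle contigs and 0.02 for 69 endocytosis contigs. They were -0.01 for 25 contigs of fatty acid oxidation, 28 of the p53 and apoptosis list and 57 of the microtubule list, -0.02 for 76 of oxidative phosphorylation, -0.04 for 70 translation factors, -0.08 for 43 lysosomal contigs and -0.08 for 23 of the unfolded protein response. The ribosomal median lay between -0.04 and 0.20 with 1 eel left out at a time. In 15 of the 29 lists, the ribosomal and clock lists among them, the median changed sign without some single eel.

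Markers of the resident cells of the 2 tissues had medians near 0 among the contigs that reached 1 CPM in both tissues. Hepatocyte contigs had a median of 0.08 (22 of 36 tested) and neuron contigs one of -0.01 (7 of 51 tested). Astroglial, oligodendroglial and ependymal contigs had 0.09 (8 of 20 tested, of 3 labels) and endothelial contigs -0.06 (18 of 20 tested). Most neuron and glial markers were thus left out of these medians. Of the contigs tested, 2 were positive and 2 negative at an unadjusted p under 0.05, beside 4.58% and 4.84% of all contigs. Collagens and other matrix genes were positive in 23 of 28 contigs, 1 at an unadjusted p under 0.05 (3.57%, beside 4.58% of all contigs), with a median of 0.17, which was 0.10 without eel 7.

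Further named contigs with a low p belonged to other roles. They did not pass, and since they were taken for their small p their ratios are a description. RAN guanine nucleotide release factor (rangrf) lay between 12.7 and 17.8 CPM in gold-fed liver, against 23.5 to 39.8 CPM in control liver, without overlap, and between 20.5 and 28.1 CPM in gold-fed brain, against 19.4 to 26.3 CPM in control brain (difference -0.93, SE 0.15, adjusted p = 0.0883, edgeR). The T-box factor eomes, which mammals use in T cells, natural killer cells and the forebrain, lay between 0.529 and 2.32 CPM in gold-fed liver, against 2.82 to 8.54 CPM in control liver, without overlap. In brain eomes lay between 31.0 and 46.4 CPM in gold-fed eels, against 31.7 to 46.9 CPM in controls, and its difference was -1.74 (SE 0.31, adjusted p = 0.146). Of the actin-branching Arp2/3 complex, ARP2 had a difference of -2.42 (SE 0.45) and ARPC4.5.5 one of -0.70 (SE 0.14). The leukotriene enzyme lta4h had -1.36 and the tetraspanin cd63 had -1.82 (adjusted p = 0.153 to 0.221 with ARP2 and ARPC4.5.5, edgeR). ARPC4.5.5 is 1 of 5 contigs of its label, and with their reads summed the difference was -0.61 (adjusted p = 0.275). Other parts of the complex are not reported here.

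On the positive side, R-cadherin (cdh4.1.2) lay between 2.81 and 24.8 CPM in gold-fed liver, against 1.02 to 3.67 CPM in control liver, with overlap, and its difference was 2.33 (SE 0.45, adjusted p = 0.154, edgeR). The transcription factors SOX9A and sall1.2.2 had differences of 1.73 and 0.96, the cell polarity cadherin celsr1 had 0.97 and the stress protein nupr1.1.2 had 0.98, or 0.37 with the reads of its label summed (adjusted p = 0.444). In these the larger fold change was that of the liver. In st5.3.3 and lmtk2.2.4 it was that of the brain. The regulator of Rab proteins st5.3.3 lay between 0.983 and 1.39 CPM in gold-fed brain, against 1.20 to 2.53 CPM in control brain, with a brain fold change of -0.77, a liver fold change of 0.22 and a difference of 0.97 (SE 0.18, adjusted p = 0.153), or 0.58 with the reads of its label summed (adjusted p = 0.370). The kinase lmtk2.2.4 had a brain fold change of -0.99, a liver fold change of 0.02 and a difference of 0.99 (SE 0.19, adjusted p = 0.154), or 0.27 with the reads of its label summed (adjusted p = 0.619).

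Over all contigs together, the liver to brain ratios of gold-fed and control eels were not separated at the adjusted threshold. Component 1 of a principal component analysis of the log2 ratio per eel held 18.97% of the variance, with scores of -6.61 to 66.2 (median 18.7) in gold-fed eels, against -52.7 to 8.47 (median -24.8) in controls. The groups overlapped, and the exact permutation test gave a two-sided p of 0.0195, or 0.0584 adjusted over 3 components. Components 2 and 3 had adjusted exact p-values of 0.996 and 0.63.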

How the data were processed

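RNA sequencing of liver and brain of 12 eels gave 24 libraries. The deposited values are raw read counts per contig: they are whole numbers, and library totals differ. Per the submitters' processing notes, the tools included BWA 0.7.12 and SAMtools 1.1. RNA was extracted with a column kit and libraries were made with a TruSeq RNA kit, per the labels' protocols, and nothing used here states the assembly, the counting rule or the strandedness, so reads of overlapping antisense transcripts cannot be told apart. All 24 columns were matched by sample description, and 0 columns belonged to no sample. The shared prefix of the contig labels was removed.

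The difference was tested in R 4.3.3 with the quasi-likelihood F test of edgeR 4.0.16 and TMM factors over all libraries, with a term per eel, a tissue term and a tissue by gold term, and Benjamini-Hochberg adjustment over 24856 contigs. The test is two-sided, and standard errors were derived from the F statistic. The terms per eel come from the labels, which name the individual of each library. In their deviations from the group means, livers correlated with their own brains at a median of 0.479. Fold changes within a tissue came from 12 libraries each without covariates. The script was tested on simulated data. Libraries of a group differed by far more than sampling noise (chi-square over its degrees of freedom at least 66.7).

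A label holds a name and, where contigs share it, a copy number and the number of copies. Of the contigs tested, 10225 carried a gene or protein name, 5938 a LOC number, 20 a locus tag and 8673 no name, and 8149 (32.8%) shared a label, so that reads of a gene may be split between them. Of 7182 distinct names, 3978 (55.4%) equalled a symbol of the RefSeq gene table of assembly fAngAng1.pri, and no coordinates were used.

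Named were the 12 contigs of smallest p in each direction among those with a gene name, the 2 of smallest p in each of 29 gene lists, and 2 without a gene name per direction. Up to 4 members of 8 lists, agpat3.2.2, the MHC class I group, and single list members given with their difference alone were chosen after their values were seen. A few contigs that this rule picks are not reported here. Gene lists matched 1337 contigs, of which 1013 were tested; some symbols that match by spelling alone were left out. The contigs and lists were chosen with earlier results of these data known. Log2 ratios of liver to brain per eel, of contigs and of lists, were taken with 0.5 CPM added to each level. Alternatives used DESeq2 1.42.0 (Wald test with the eel block), limma 3.58.1 (voom, and the log2 ratio per eel with 0.5 CPM added), other scalings, other filters, counts summed by label and each eel left out.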

Additional observations from a re-analysis of the deposited data

Results flagged for a closer look

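Of 186 groups of 6 liver to brain ratios examined (93 named contigs, gold-fed and control eels), 11 held an eel whose gap to the nearest other was above Dixon's critical value of 0.625 of the range. Chance flags about 1 in 20 groups, or 9.3 here.

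Gold-fed eel 11 was the eel far above the rest of its group in 6 contigs, 5 of them of sterol synthesis or its regulators. Its log2 ratio of liver to brain was 1.07 in srebf2.2.5 (others -1.38 to -0.80), 1.47 in srebf2.4.5 (others -0.51 to -0.03), 2.86 in tm7sf2 (others -0.08 to 0.98), 5.87 in msmo1 (others 1.45 to 2.96), 3.17 in fdft1.2.2 (others -0.46 to 0.40) and 1.34 in the choline kinase contig chkb.2.3 (others -0.38 to 0.21). Gold-fed eel 12 lay far below the rest of its group in irf8 at -3.80 (others -2.02 to -1.39) and in s100b.1.5 at -6.86 (others -6.11 to -5.71). Gold-fed eel 10 lay below in tek.1.2 at -0.27 (others 0.25 to 0.55). Among controls, eel 3 lay above in nr1d1.2.2 at 0.62 (others -2.16 to -1.31) and eel 4 below in xrcc6 at -0.90 (others -0.01 to 0.47).

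The gold responses of liver and brain differed, by the test of the difference itself, in 6 contigs. The difference was -2.36 in contig_02561, 1.86 in contig_15793, 1.66 in contig_15215, 1.54 in agpat3.1.2, -1.62 in contig_22134 and -1.89 in oncmyk-uba.13.29. The last 2 were the least stable, and each passed in 2 of the 12 fits with single eels left out in turn.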

How the results depend on the processing

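The number of contigs that passed depended on the pairing and on the test. Against 6 with the replicate block of eels, 1 passed with no replicate block (agpat3.1.2, which also passed with it), 12 with the replicate block as a random effect in limma-voom (1 of them shared) and 232 with the replicate block in DESeq2, which held all 6. With filterByExpr and with no filter 1 contig passed, contig_02561, where 50455 and 50640 contigs were tested. It was 4 to 6 under each other scaling, filter, test and counting unit run. With 1 eel left out at a time it lay between 0 and 16. The cause of these changes was not tested. Component 1 had an adjusted exact p of 0.026 without eel 7, the lowest with 1 eel left out, and 0.143 at the highest.

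All named contigs kept the sign of their difference under each alternative, with 5 exceptions. When counts were summed by label the difference was -0.22 for tek.2.2, -0.30 for txn2.2.3, 1.33 for agpat3.2.2 and 0.027 for s100b.3.5, since the label's other contigs then enter, and without eel 8 that of syn1 was -0.033 (up to 0.48 without eel 10). Of 480 list medians under alternatives, 6 moved beyond the spread, in glycerolipid synthesis (0.03 to 0.22, against 0.14) and endocytosis (0.10, against 0.02). Depth limits values of a few reads, such as the lowest of oncmyk-uba.13.29.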
